A study of Mus musculus with 18 samples.

Results

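The proteasome genes of mouse macrophages are described here across 6 groups of genotype and time, as array signals. They were taken as the rows of the value table with a single platform gene symbol that began with Psma, Psmb, Psmc, Psmd, Psme, Psmf or Psmg followed by a digit, with the brightest row kept for each symbol. This gave 50 symbols of 19454 genes with a row. Of the 50, 48 reached the signal limit for testing, a log2 intensity of 3.03 in at least 1 group mean, among 10258 genes that did. Psma8, the germ cell alpha subunit, and Psmb11, the thymus beta subunit, stayed below it with log2 intensities of at most 2.47 and 2.39 in every array. The symbol rule also took in 2 genes that are not proteasome subunits by their names, Psmc3ip, a meiotic recombination factor, and Psme3ip1, a protein that interacts with the product of Psme3. They were kept in the counts and in no functional class.

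The proteasome is the barrel-shaped protease that degrades ubiquitin-tagged proteins. Alpha subunits form its outer rings and beta subunits its inner rings, of which a few carry the proteolytic sites, while a regulatory particle of ATPase and non-ATPase subunits binds, unfolds and feeds in the substrate. In macrophages, interferon and inflammatory signals exchange the catalytic beta subunits for immunosubunits, whose products feed antigen presentation by MHC class I.

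The cells were bone marrow-derived macrophages, grown from C57Bl/6 marrow with M-CSF, either wild type (WT) or TTP-/- (KO), in which the mice lack tristetraprolin throughout the body. Tristetraprolin, encoded by Zfp36, binds AU-rich elements of mRNAs and brings about their decay. All 6 groups, those at 0 min included, had received lipopolysaccharide (LPS) for 3 h, and the medium was then exchanged for one that held actinomycin D, a blocker of transcription, together with the p38 kinase inhibitor SB203580, for 0, 45 or 90 min. Each group held 3 arrays. Both agents were added together, so an effect of halted transcription and one of p38 inhibition cannot be told apart. Whether the replicates are separate animals or cultures is not in the labels, and the p-values cover only the spread between these arrays, which may be technical.

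Array medians lay between intensities of 7.41 and 8.19, and arrays of a group correlated at 0.940 to 0.993 on the log2 scale. All 8 measured macrophage markers reached the signal limit, against 1 of 8 neutrophil markers (S100a8), 1 of 6 dendritic cell markers (Zbtb46), 0 of 6 T and NK cell markers, 0 of 3 B cell markers and 3 of 6 fibroblast markers (Col1a1, Col1a2 and Col3a1, with no fibroblast marker above a log2 intensity of 3.98 at 0 min). Zfp36 gave log2 intensities of 7.95, 7.86 and 7.12 in WT and 6.25, 6.75 and 6.81 in KO at 0 min, but the probes are summed over the gene and the deleted part was not identified here, so it does not check the genotype label. By the numbers in their titles the arrays form a lower run, which holds replicate 3 of every group (series A), and a higher run, which holds replicates 1 and 2 (series B). The deposited values have no absolute scale of RNA per cell, so each change below is relative to the other mRNAs on the array, and fewer cells and less RNA per cell cannot be told apart.

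The promoters of 4 members are shown first. Psmb5 and Psmb8 are the standard subunit and the immunosubunit for the same catalytic position. Psme4 and Psmc6 are the members whose signals differed most between the arrays of WT cells at 0 min. Each run is 5′ to 3′ on the gene's strand, from 250 bases before to 50 bases after the RefSeq transcription start (GRCm38.p6). Capitals mark matches to TGACNNNGC (the antioxidant response element, known as a site for Nfe2l1 and Nfe2l2) or CCGGAAG (an ETS core), searched on both strands.
Psmb5, chr14:54617946-54618245, minus strand: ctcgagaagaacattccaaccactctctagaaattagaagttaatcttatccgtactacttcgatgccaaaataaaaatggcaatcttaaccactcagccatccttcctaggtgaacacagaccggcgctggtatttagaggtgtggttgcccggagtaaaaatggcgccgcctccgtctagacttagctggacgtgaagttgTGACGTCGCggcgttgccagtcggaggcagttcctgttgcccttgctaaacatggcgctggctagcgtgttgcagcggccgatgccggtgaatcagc
Psmb8, chr17:34197945-34198244, plus strand: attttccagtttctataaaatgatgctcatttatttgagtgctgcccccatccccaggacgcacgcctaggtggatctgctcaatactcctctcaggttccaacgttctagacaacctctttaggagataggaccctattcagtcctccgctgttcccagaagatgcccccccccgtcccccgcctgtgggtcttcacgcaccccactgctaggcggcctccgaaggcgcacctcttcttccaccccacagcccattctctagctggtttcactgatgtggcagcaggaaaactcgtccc
Psme4, chr11:30771525-30771824, plus strand: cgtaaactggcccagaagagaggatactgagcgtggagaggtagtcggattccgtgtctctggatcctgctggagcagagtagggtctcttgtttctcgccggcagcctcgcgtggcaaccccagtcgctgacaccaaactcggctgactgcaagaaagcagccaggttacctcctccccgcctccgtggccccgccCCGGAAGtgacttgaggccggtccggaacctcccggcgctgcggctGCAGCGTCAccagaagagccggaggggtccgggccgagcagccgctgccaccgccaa
Psmc6, chr14:45329574-45329873, plus strand: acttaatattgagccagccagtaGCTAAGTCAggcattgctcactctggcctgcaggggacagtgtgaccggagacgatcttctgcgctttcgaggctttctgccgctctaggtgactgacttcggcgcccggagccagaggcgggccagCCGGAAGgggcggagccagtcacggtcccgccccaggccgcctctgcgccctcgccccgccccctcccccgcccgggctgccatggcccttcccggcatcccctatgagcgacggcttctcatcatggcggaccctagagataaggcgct
Psmb5 held an antioxidant element whose first base lay 47 bases before the start, and the window of Psmb8 held neither motif. Psme4 and Psmc6 each held an antioxidant element on the opposite strand, 7 and 227 bases before the start, and an ETS core, 53 and 100 bases before it. RefSeq windows were matched for 42 of the 50 symbols, 46 windows in all. The antioxidant element was in 6 of the 46 windows (13%), against 12.4% of all 32851 windows. The ETS core was in 17 of the 46 (37%), against 8.86% of all windows. These matches are letters in a window, and the arrays did not measure binding.

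The first comparison asked which mRNAs were lost from WT macrophages once transcription stopped. No proteasome gene passed the test: limma called 0 of 48 members at an adjusted p below 0.05, where it called 1.23% of all genes tested, 1 higher (0.00975%) and 125 lower (1.22%). At an unadjusted p below 0.05 there was 1 member, Psmd5, against 9.43% of all genes, and with the replicate number or the title-number series as a block the count was again 0. The members' median log2 change at 90 min was -0.01, beside -0.02 for all genes, and their median absolute change was 0.10, beside 0.16. The 95% interval of the change, taken gene by gene, had its lower end above -1, a loss of 50%, for 48 of 48 members and for 91.1% of all genes. The lowest such bound was that of Psmd5, -0.81, which leaves 56.9% of the 0 min signal. These intervals rest on 1 spread for each gene, shared by the 6 groups. In WT at 0 min the SD of Psmc6 was wider, 0.83 beside a pooled SD of 0.44, and that of Psmg1 narrower, 0.02 beside 0.14. The count of 48 thus depends on that shared spread. For scale, the short-lived cytokine mRNA Tnf went from 11.8, 11.9 and 11.8 to 7.72, 7.61 and 7.47 in the same WT arrays.

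No member passed in KO cells either. At 90 min limma called 0 of 48 members, where 0.224% of all genes were called, all lower, and 1 member, Psmc1, was at an unadjusted p below 0.05 against 5.36% of all genes. The replicate numbers were taken to pair the KO arrays, and with that block the count was 0 members and 57 genes, up from 23. The members' median change was 0.06, beside 0.02 for all genes, and the lower end of the interval was above -1 for 48 of 48 members and 93.1% of all genes. The lowest bound, -0.72 for Psmc6, leaves 60.8% of the signal.

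**Figure D1:**
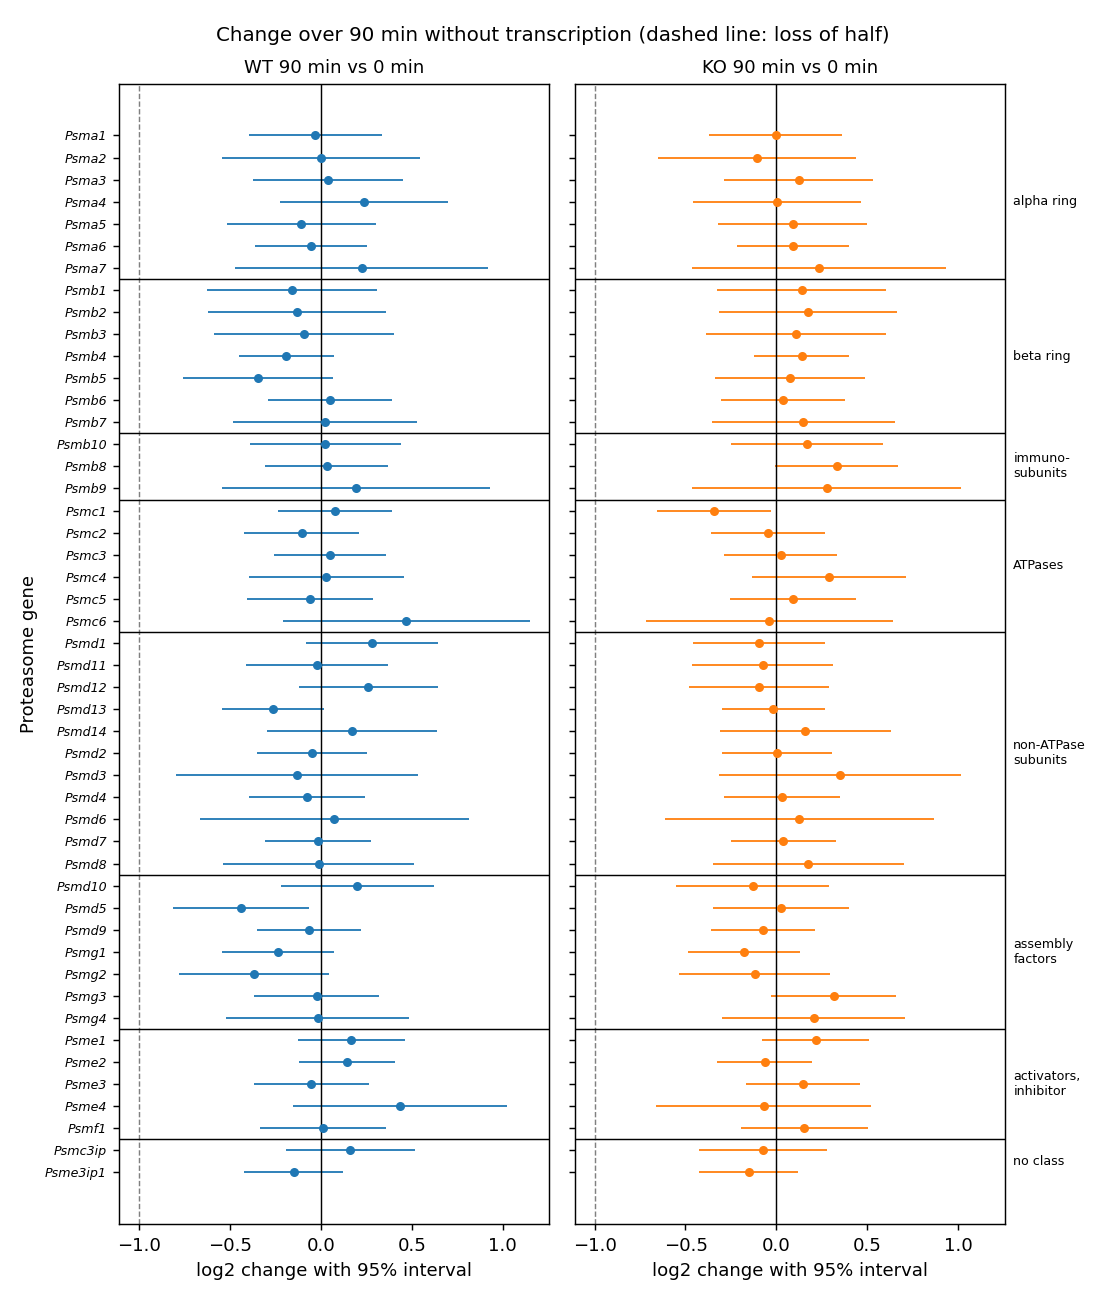
Log2 change of each of the 48 tested proteasome genes from 0 to 90 min without transcription, in WT cells (left) and KO cells (right). Points are limma estimates from 3 arrays a group, and the dashed line marks a loss of 50%. Bars are 95% intervals from a spread shared by the 6 groups. No bar reaches the dashed line in either panel.

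At 45 min limma called 0 of 48 members in WT (0.127% of all genes were called) and 0 of 48 in KO (0.0487%). At an unadjusted p below 0.05 there were 2 members in WT, Psmb5 and Psmd13, both with a lower signal, against 3.89% of all genes. In KO there was 1 member, Psmg3, with a higher signal, against 5.26%. Of all genes, 142 were higher and 257 lower in WT at that p, and 144 higher and 396 lower in KO. Both time points share the 0 min arrays of their genotype. With the replicate block the counts of members stayed at 0, while the counts over all genes went from 13 to 26 in WT and from 5 to 26 in KO.

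The catalytic beta subunits of the standard proteasome come first. Psmb5 (chromosome 14, 54614120 to 54617995, GRCm38.p6, as for all gene positions here) encodes the subunit with chymotrypsin-like activity. In WT its log2 intensity was 7.73, 7.78 and 7.53 at 0 min, 7.43, 7.46 and 6.77 at 45 min, and 7.44, 7.39 and 7.17 at 90 min, in the order of replicates 1, 2 and 3. In KO it was 7.39, 7.55 and 7.11 at 0 min, 7.76, 7.35 and 7.39 at 45 min, and 7.38, 7.67 and 7.23 at 90 min. All 6 later WT arrays lay below all 3 WT arrays at 0 min, while the KO times overlapped. The share of all genes whose arrays separate between times or genotypes was not counted, here or for the genes below. A lack of overlap is therefore only a description of the values. Psmb5 had the lowest log2 change of all members in WT at 45 min, -0.46 ± 0.20 (SE, n = 3; limma adjusted p = 0.997), and at 90 min it was -0.35 ± 0.20 (adjusted p = 0.662), so neither passed. In KO the 90 min change was 0.08 ± 0.20 (adjusted p = 0.9998), and the KO minus WT difference in change was 0.42 with a 95% interval from -0.16 to 1.01.

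Psmb6 (chromosome 11, 70525324 to 70527858) encodes the subunit with caspase-like activity. In WT it measured 9.0, 9.15 and 8.62 at 0 min, 8.98, 8.87 and 8.77 at 45 min, and 9.09, 8.91 and 8.92 at 90 min. In KO it measured 8.90, 8.71 and 8.45, then 8.75, 8.55 and 8.59, then 8.88, 8.74 and 8.54 at the same times. At 45 and 90 min every WT array lay above every KO array, and at 0 min the genotypes overlapped. Over all times the KO minus WT difference was -0.24 ± 0.09 (SE; limma adjusted p = 0.276), which did not pass.

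Psmb7 (chromosome 2, 38588046 to 38643952) encodes the subunit with trypsin-like activity. In WT it measured 8.42, 8.61 and 9.11 at 0 min, 8.57, 8.44 and 9.08 at 45 min, and 8.43, 8.80 and 8.97 at 90 min. The KO arrays gave 8.54, 8.42 and 8.74, then 8.26, 8.60 and 8.92, then 8.54, 8.48 and 9.14. Replicate 3 was the highest array in all 6 groups, and the times and genotypes overlapped. Its change at 90 min was 0.02 ± 0.24 in WT and 0.15 ± 0.24 in KO.

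The other standard beta subunits are structural. As a class the 7 beta genes had a median change of -0.13 in WT at 90 min, with 5 of 7 below 0, and of 0.14 in KO, with 7 of 7 above 0. Of all genes, 47.3% had a change above 0 in WT and 53.5% in KO. The KO changes share the 0 min arrays, of which replicate 3 was the lowest of 18 arrays for Psmb1, Psmb2, Psmb4 and Psmb6. None of the 7 passed the test in either genotype, and none passed the test of the difference between genotypes.

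The immunosubunits replace these catalytic subunits in stimulated cells. Psmb8 (chromosome 17, 34198195 to 34201454) takes the place of Psmb5 and Psmb9 (chromosome 17, 34182030 to 34187330) that of Psmb6, and both genes lie close together in the MHC region. Psmb8 measured 7.45, 7.65 and 7.37 at 0 min, 7.64, 7.62 and 7.27 at 45 min, and 7.61, 7.41 and 7.54 at 90 min in WT. In KO it measured 7.33, 7.50 and 7.06, then 7.54, 7.48 and 7.38, then 7.54, 7.87 and 7.47. The WT times overlapped, and so did those of KO, where replicate 3 was the lowest array at each time. Its change at 90 min was 0.03 ± 0.16 in WT and 0.33 ± 0.16 in KO (limma adjusted p = 0.934), and neither passed. Within the numbered KO pairs the differences were 0.21, 0.37 and 0.42, and with the replicate block the adjusted p was 0.495.

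Psmb9 measured 7.51, 7.74 and 6.92 at 0 min, 7.87, 7.71 and 6.95 at 45 min, and 7.94, 7.69 and 7.12 at 90 min in WT. For KO the values were 7.72, 7.82 and 6.82, then 7.89, 7.97 and 6.92, then 7.76, 8.14 and 7.29. Replicate 3 was the lowest array of every group by a wide margin, and among the other arrays the groups overlapped. Its change at 90 min was 0.19 ± 0.35 in WT and 0.28 ± 0.35 in KO.

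Psmb10 (chromosome 8, 105935728 to 105938392) takes the place of Psmb7. It measured 8.10, 8.33 and 7.49 at 0 min, 8.18, 8.15 and 7.61 at 45 min, and 8.11, 7.84 and 8.03 at 90 min in WT. The values in KO were 7.94, 7.91 and 7.69, then 7.86, 7.99 and 7.81, then 7.95, 7.98 and 8.11. Replicate 3 was low in WT at 0 and 45 min and not at 90 min, and the KO arrays lay close together, with replicate 3 lowest at 0 and 45 min and highest at 90 min. The change at 90 min was 0.02 ± 0.20 in WT and 0.17 ± 0.20 in KO. All 3 immunosubunits thus had changes above 0 in both genotypes, beside 47.3% of all genes in WT and 53.5% in KO. Their medians were 0.03 in WT and 0.28 in KO, and 0 of 3 passed in either.

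**Figure D2:**
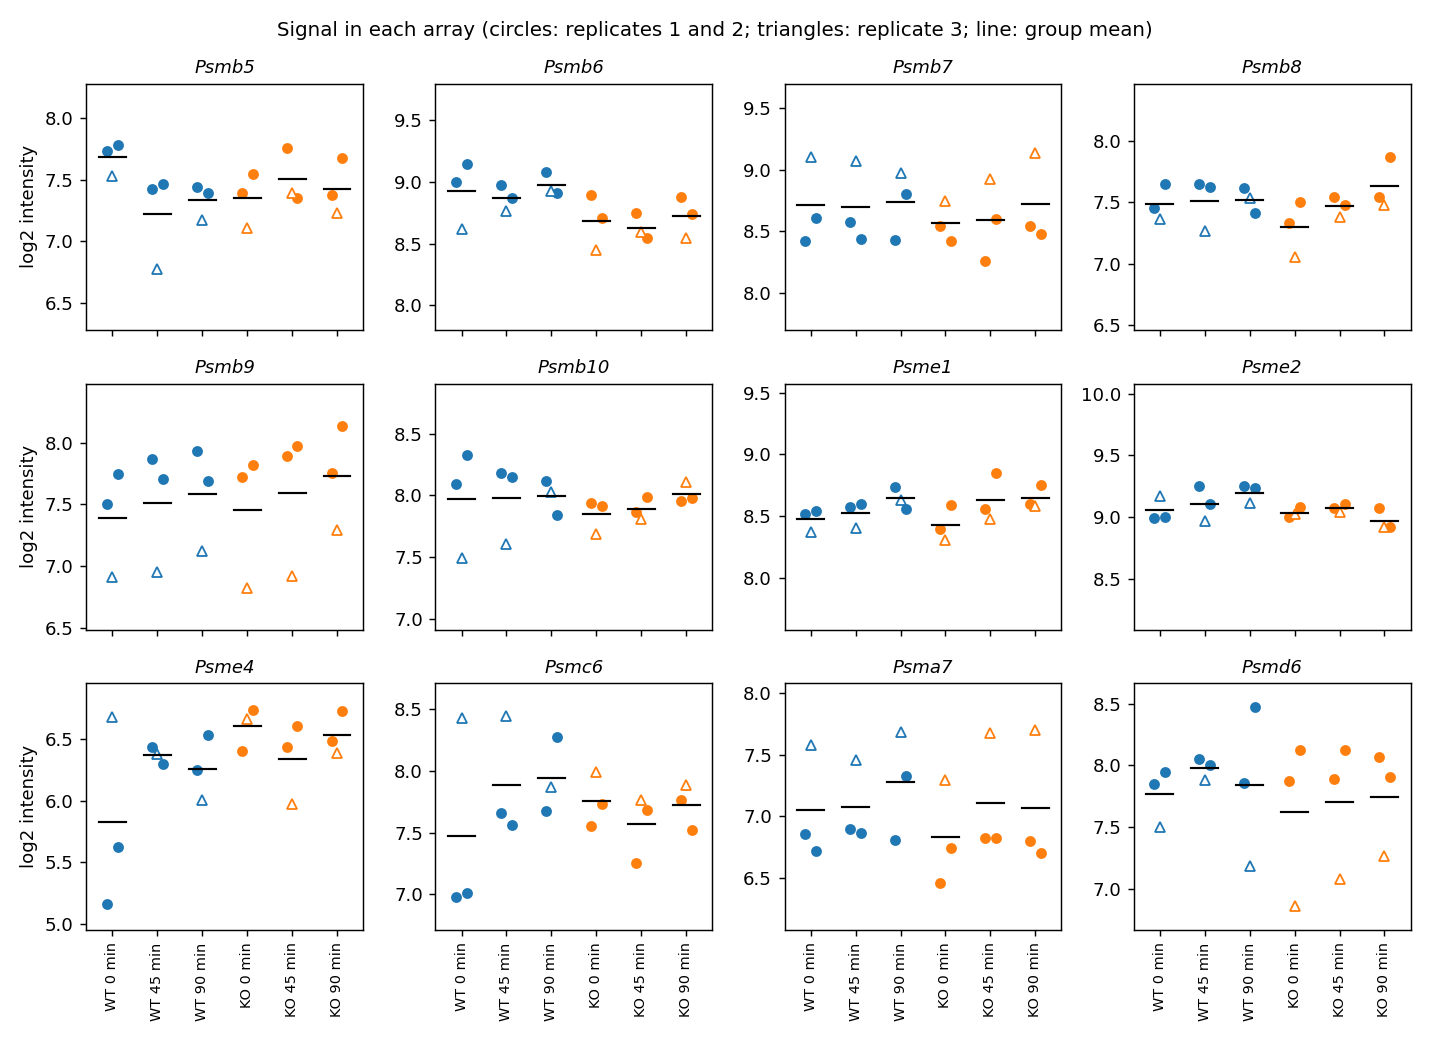
Log2 intensity in each array for the 6 catalytic beta subunits, Psme1, Psme2 and 4 members discussed for their spread, with WT in blue and KO in orange at 0, 45 and 90 min. Circles are replicates 1 and 2, triangles are replicate 3 and lines are means of 3 arrays. Replicate 3 is the lowest array of each group for Psmb9 and the highest for Psmb7, and the circles of Psme4 and Psmc6 in WT at 0 min lie below all others of the gene.

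The activator genes include Psme1 and Psme2, whose products form a cap that opens the core particle without ATP. They lie near each other on chromosome 14, from 55578494 to 55581527 and from 55587440 to 55591101. Psme1 measured 8.51, 8.54 and 8.37 at 0 min, 8.58, 8.60 and 8.40 at 45 min, and 8.74, 8.56 and 8.63 at 90 min in WT. In KO it measured 8.39, 8.59 and 8.30, then 8.56, 8.85 and 8.48, then 8.60, 8.75 and 8.58. All 3 WT arrays at 90 min lay above those at 0 min, and the KO arrays overlapped. The change of Psme1 at 90 min was 0.17 ± 0.14 in WT (limma adjusted p = 0.856) and 0.22 ± 0.14 in KO.

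Psme2 measured 9.0, 9.0 and 9.17 at 0 min, 9.25, 9.11 and 8.97 at 45 min, and 9.25, 9.23 and 9.11 at 90 min in WT. The KO arrays gave 9.0, 9.09 and 9.02, then 9.07, 9.11 and 9.04, then 9.08, 8.92 and 8.92. All arrays lay within a log2 range from 8.92 to 9.25, and the times overlapped in both genotypes. The change at 90 min was 0.14 ± 0.12 in WT and -0.07 ± 0.12 in KO. Its pooled SD within groups was 0.09, near the lowest of the members.

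Psme4 encodes a large activator that caps the core particle as a single chain, and lies on chromosome 11 from 30771775 to 30881150. In WT it measured 5.17, 5.63 and 6.68 at 0 min, 6.44, 6.30 and 6.38 at 45 min, and 6.25, 6.53 and 6.00 at 90 min. In KO the signals were 6.40, 6.74 and 6.67, then 6.44, 6.61 and 5.97, then 6.48, 6.73 and 6.39. Replicates 1 and 2 of WT at 0 min were the lowest of all 18 arrays, and the third array of that group was near the top. Psme4 had the highest difference of all members between KO and WT at 0 min, 0.78 ± 0.28 (SE, n = 3; limma adjusted p = 0.643), and in WT at 45 min, 0.55 ± 0.28 (adjusted p = 0.997). Neither passed with all arrays.

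Psmc6, an ATPase of the regulatory particle on chromosome 14 from 45329823 to 45349074, had the highest change of all members in WT at 90 min. In WT it measured 6.98, 7.01 and 8.43 at 0 min, 7.66, 7.56 and 8.44 at 45 min, and 7.68, 8.28 and 7.87 at 90 min. The values in KO were 7.55, 7.74 and 8.0, then 7.26, 7.69 and 7.76, then 7.76, 7.52 and 7.88. Again replicates 1 and 2 of WT at 0 min were the lowest of all 18 arrays, while replicate 3 of that group was above all but 1. The change was 0.47 ± 0.32 (limma adjusted p = 0.775). It did not pass.

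These results rested on which WT arrays at 0 min entered. Within series B, limma called 3 members higher in WT at 90 min: Psme4 by 0.99 (adjusted p = 0.00595), Psmc6 by 0.98 (adjusted p = 0.00808) and Psmd1, a scaffold subunit of the regulatory particle, by 0.56 (adjusted p = 0.0290). These 3 of 48 stood beside 7.46% of all genes called higher in the same fit. In series A, with 1 array a group and no test, the same differences were -0.68, -0.56 and -0.27. Psme4 was also called within series B at 45 min in WT (0.97, adjusted p = 0.0261), for KO against WT at 0 min (1.17, adjusted p = 0.00451) and over all times (0.52, adjusted p = 0.0171), where 2.13%, 8.19% and 4.87% of all genes were called higher. In series A these Psme4 differences were -0.31, -0.01 and -0.01. Without replicate 3 of WT at 0 min, limma called 1 member in WT at 90 min (Psme4), 1 at 45 min (Psme4) and 3 for KO against WT at 0 min (Psme4 and Psmd1 higher, Psmb4 lower), and 1 for KO against WT over all times (Psme4). Over all genes, that single omission took the count in WT at 90 min from 1 higher and 125 lower to 163 higher (1.59%) and 133 lower, and at 45 min from 0 higher and 13 lower to 242 higher (2.36%) and 25 lower. For KO against WT at 0 min it went from 0 to 738 higher (7.19%) and 77 lower (0.751%), and over all times from 90 higher and 46 lower to 404 higher (3.94%) and 95 lower.

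The low signal of those arrays was not limited to proteasome genes. Replicates 1 and 2 of WT at 0 min were the lowest of the 18 arrays for 4 members, Psma4, Psmc6, Psmd1 and Psme4 (8.33%), and for 9.38% of all genes. They were the highest for 3 members, Psmb4, Psmd13 and Psmd4 (6.25%), and for 2.96% of all genes. Whether both arrays or the third one depart from the group cannot be told apart with 3 arrays. In an alternative chosen after seeing the data, both series B arrays of WT at 0 min were left out, which left 1 array whose spread was assumed to equal that of the other groups. Then limma called 1 member at 90 min in WT, Psmd5, with a log2 change of -0.88 (adjusted p = 0.0265), beside 3.56% of all genes called lower.

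Psmd5 encodes a chaperone for assembly of the regulatory particle and lies on chromosome 2 from 34852087 to 34870965. In WT it measured 6.08, 6.14 and 6.78 at 0 min, 6.00, 6.09 and 6.17 at 45 min, and 5.62, 6.10 and 5.97 at 90 min. In KO the signals were 5.86, 6.00 and 6.01, then 5.63, 5.71 and 5.92, then 5.95, 5.95 and 6.04. Replicate 3 of WT at 0 min was the highest of all arrays, and the other 2 arrays of that group overlapped with 90 min. With all arrays its WT change at 90 min was -0.44 ± 0.18 (limma adjusted p = 0.396), the lowest of all members. Within series B it was -0.25 (adjusted p = 0.361), and in series A -0.81.

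The remaining classes gave ranges around 0 at 90 min, with no member past the test. The 7 tested alpha subunits had a median change of 0.00 in WT, from -0.11 (Psma5) to 0.24 (Psma4), and of 0.09 in KO, from -0.10 (Psma2) to 0.23 (Psma7). The 6 ATPases had a median of 0.04 in WT, from -0.10 (Psmc2) to 0.47 (Psmc6), and of -0.01 in KO, from -0.34 (Psmc1) to 0.29 (Psmc4). Their products form the ring that unfolds the substrate.

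The 11 non-ATPase subunits, which include the ubiquitin receptor Psmd4 and the deubiquitinase Psmd14, had a median of -0.02 in WT, from -0.26 (Psmd13) to 0.28 (Psmd1), and of 0.03 in KO, from -0.10 (Psmd12) to 0.35 (Psmd3). The 7 assembly factors had a median of -0.07 in both genotypes. Of these, 6 of 7 had a change below 0 in WT, from -0.44 (Psmd5) to 0.20 (Psmd10), and 4 of 7 in KO, from -0.18 (Psmg1) to 0.32 (Psmg3). Psmg3, a chaperone of the core particle, was near the signal limit in every array, with log2 intensities from 2.46 to 3.23. The activators with the inhibitor Psmf1, 5 genes, had a median of 0.14 in WT, from -0.05 (Psme3) to 0.44 (Psme4), and of 0.15 in KO, from -0.07 (Psme4) to 0.22 (Psme1).

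Psmc1 and Psmd3 had the lowest and highest changes in KO at 90 min, -0.34 ± 0.15 (limma adjusted p = 0.840) and 0.35 ± 0.32 (adjusted p = 0.9998). Psmc1 went from 7.78, 7.77 and 7.70 to 7.51, 7.19 and 7.53 in KO, with no overlap between the times. Psmd3 went from 5.66, 5.70 and 6.22 to 5.87, 6.17 and 6.59; the times overlap, but within the numbered pairs all 3 differences were above 0 (0.21, 0.46 and 0.38). With the replicate block Psmd3 had an adjusted p of 0.753 and Psmc1 of 0.509, and neither passed. At 45 min in KO the lowest change was -0.27 ± 0.20 for Psmd10 and the highest 0.36 ± 0.16 for Psmg3 (adjusted p = 0.930). Psmd10 went from 7.95, 7.81 and 8.04 to 7.69, 7.74 and 7.57, with no overlap, and Psmg3 from 2.46, 2.98 and 2.85 to 3.21, 3.15 and 3.00, also with no overlap but at the signal limit. Psmc1, Psmd10 and Psmg3 were named for an extreme change in the same comparison, so their lack of overlap adds no support.

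Whether the change over 90 min differed between genotypes was tested as KO change minus WT change. No member passed: limma called 0 of 48, where 0.0195% of all genes, 2 genes, were called. At an unadjusted p below 0.05 there were 0 members against 2.67% of all genes. The median difference was 0.07, beside 0.04 for all genes, and 32 of 48 members were above 0, beside 56.4% of all genes. It ran from -0.51 for Psmc6 (95% interval from -1.47 to 0.45) to 0.48 for Psmd3 (from -0.46 to 1.42). The intervals of 42 of 48 members lay between -1 and 1, as did those of 69.8% of all genes, and the intervals of the other members reached past these bounds.

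The level of the proteasome genes was then compared between genotypes. At 0 min, after LPS alone, limma called 0 of 48 members and 0 of all 10258 genes (0%). The unadjusted limma p was below 0.05 for 5 members, 1 higher and 4 lower, against 777 genes (7.57%), 387 higher and 390 lower. The replicate numbers were taken to pair these arrays, and with the block the count was 0 members and 32 genes. Of the members, 39 of 48 had a lower mean in KO, with a median log2 difference of -0.17, beside -0.00 for all genes, of which 49.9% were higher in KO. The difference ran from -0.47 for Psmb1 (95% interval from -0.94 to -0.01; adjusted p = 0.655) to 0.78 for Psme4.

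Psmb1, a structural beta subunit, measured 7.31, 7.11 and 7.03 in WT and 6.98, 7.0 and 6.05 in KO at 0 min, with no overlap but with replicate 3 of KO far below the rest. Psmb4, another structural beta subunit, was chosen after its values were seen, for the smallest p of the members in this comparison. It measured 8.25, 8.27 and 8.15 in WT and 7.86, 7.88 and 7.69 in KO at 0 min. Its groups did not overlap, and the difference was -0.42 ± 0.12 (limma adjusted p = 0.563). Both Psmb1 and Psmb4 were picked from this same comparison, so their lack of overlap adds no support. Replicate 3 of KO at 0 min was the lowest of the 18 arrays for 15 of 48 members. The share over all genes was not counted for this array, so the low values may not be limited to proteasome genes.

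By class, with no test over a class, most KO means were below those of WT. In 7 of 7 standard beta genes, 6 of 7 alpha genes, 10 of 11 non-ATPase subunits, 5 of 7 assembly factors, 4 of 6 ATPases, 4 of 5 activators and inhibitor, and 2 of 3 immunosubunits the KO mean at 0 min was below WT. The class medians ran from -0.33 for the beta genes to -0.05 for the activators. Within series B the median over the members was -0.10 with 31 of 48 lower, and in series A it was -0.31 with 43 of 48 lower. In the series B fit limma called 840 of all genes higher in KO and 101 lower. The share of all genes lower in KO is not given here for either series, so these member counts have no background. Centred on 61 ribosomal protein genes, the median of all genes moved from -0.00 to 0.38 and that of the members turned to 0.21. In that fit 2 members (Psme4 and Psmd1) and 7.84% of all genes were called higher, so the direction of the level depends on the scaling. The members' median was 0.17 below that of all genes under both. Centring shifts all genes of an array by the same amount, so it could not change this gap and is no check of it.

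Over all 3 times, 9 arrays a genotype, limma called 0 of 48 members, where 1.33% of all genes were called, 90 higher (0.877%) and 46 lower (0.448%). At an unadjusted p below 0.05 there were 6 members, all lower (Psma6, Psmb4, Psmb6, Psmc2, Psmd12 and Psmg1), against 11.6% of all genes. Of those genes, 659 were higher and 531 lower. The replicate numbers were taken to pair the genotypes at each time. With the block limma called 0 members and 476 genes, 303 higher and 173 lower. In the planned fit, with all arrays and no block, the smallest limma adjusted p of any member was that of Psma6 here. It was 0.196, the smallest over the 7 comparisons of genotype and time, for a difference of -0.25 ± 0.08. Some other settings with all arrays and no block gave smaller values in this comparison, such as 0.0878 for Psmb4 with an offset of 8. With the replicate block the adjusted p of Psma6 was 0.0800. The members' median was -0.12, beside 0.01 for all genes, and 39 of 48 were lower in KO. With ribosomal centring the members' median turned to 0.07 and that of all genes to 0.19, and the calls were 584 higher (5.69%) and 24 lower, with 1 member (Psme4) among those higher. The range was from -0.25 (Psmb1) to 0.34 (Psme4), and every member's 95% interval lay between -1 and 1.

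Members did pass the test between the title-number series, a comparison added after the data were seen. With the 6 groups in the model, limma called 16 of 48 members (33.3%) between series A and series B, 10 higher and 6 lower in series A, where 26.1% of all genes were called, 17.1% higher and 9% lower. The split depends on the scaling: it was 1752 higher and 923 lower over all genes, 1340 and 1232 with quantile normalization, and 600 and 1167 with ribosomal centring, which called 6 members higher and 7 lower. The series may be a technical batch, but the labels do not say what it is, and a count near the background is not a result about proteasome genes. Lower in series A were Psmb9, Psmd6, Psmb2, Psmb1, Psma5 and Psmb5. Higher were Psma7, Psmd3, Psmd8, Psmc6, Psmb7, Psma2, Psmb3, Psmg4, Psmc4 and Psmd11.

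Psmb9 had the largest difference, -0.81 ± 0.09 (SE; limma adjusted p = 2.545e-06), and the values in series A, 6.82 to 7.29, lay below all 12 of series B, 7.51 to 8.14. Psmd6, a non-ATPase subunit, was lower by -0.72 ± 0.12 (adjusted p = 0.000279) but overlapped, with 6.86 to 7.88 in series A and 7.85 to 8.48 in series B. Psma7, an alpha subunit, was higher by 0.75 ± 0.09 (adjusted p = 8.398e-06), with 7.29 to 7.70 in series A and 6.46 to 7.33 in series B. Psmb7 was higher by 0.48 ± 0.09 (adjusted p = 0.000558) and Psmb5 lower by 0.33 on the log2 scale, a value of -0.33 ± 0.09 (adjusted p = 0.0119). Standard catalytic subunits thus went in both directions.

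**Figure D3:**
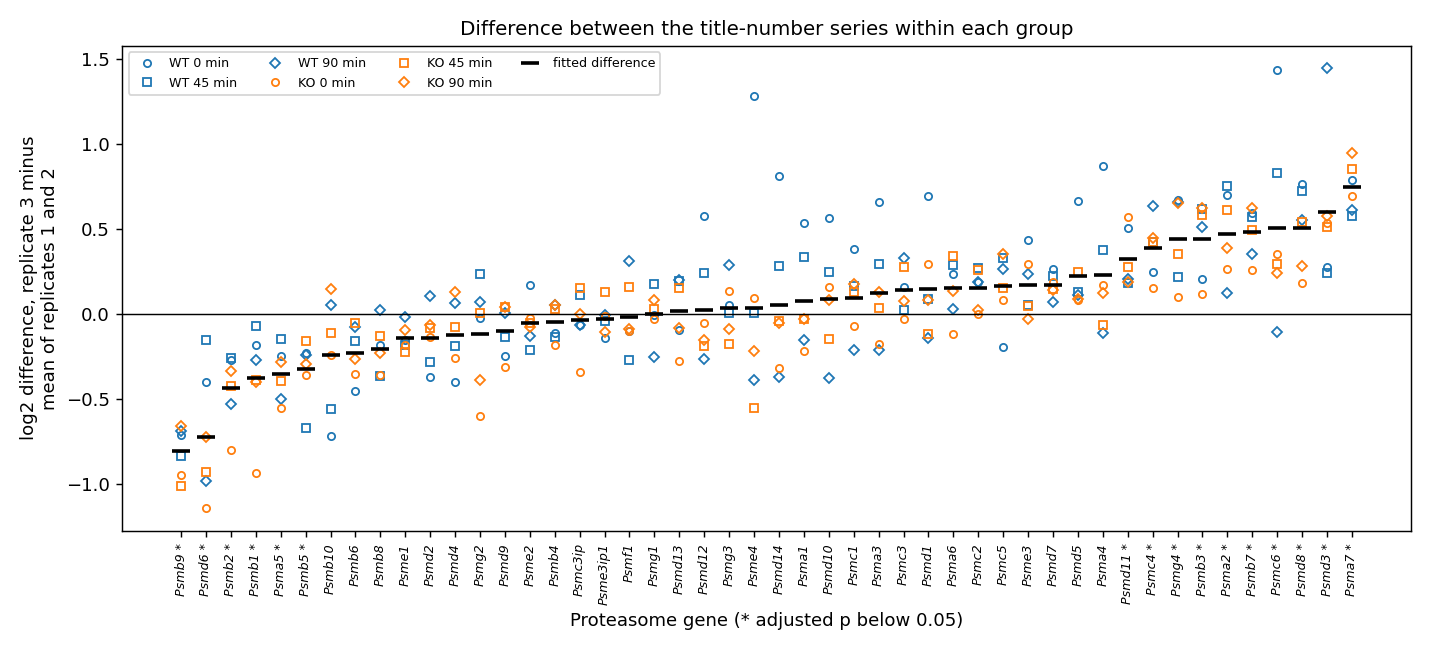
Log2 difference between replicate 3 (series A) and the mean of replicates 1 and 2 (series B) within each of the 6 groups, for each tested proteasome gene, ordered by the fitted difference (black bars). Stars mark the 16 genes with an adjusted p below 0.05. Psmb9 is below 0 and Psma7 above 0 in all 6 groups, while Psme4 ranges from below 0 to far above it in WT at 0 min.

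The sign of the difference was the same in all 6 groups for 20 of 48 members (41.7%), 12 higher and 8 lower in series A, and for 21.1% of all genes. All 6 arrays of series A lay outside the range of series B for 2 members, Psmb9 and Psmd11 (4.17%), and for 4.1% of all genes. Leaving out each array in turn gave 14 to 20 called members. Psmb5 lost its call without replicate 3 of WT at 45 min (adjusted p = 0.0546), and Psmc6 lost its call there, without replicate 3 of WT at 0 min and without both series B arrays of that group. Ribosomal centring dropped Psmb3, Psmc4, Psmd11 and Psmg4, and the filter at the 75th percentile of signal dropped Psmg4.

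**Figure D4:**
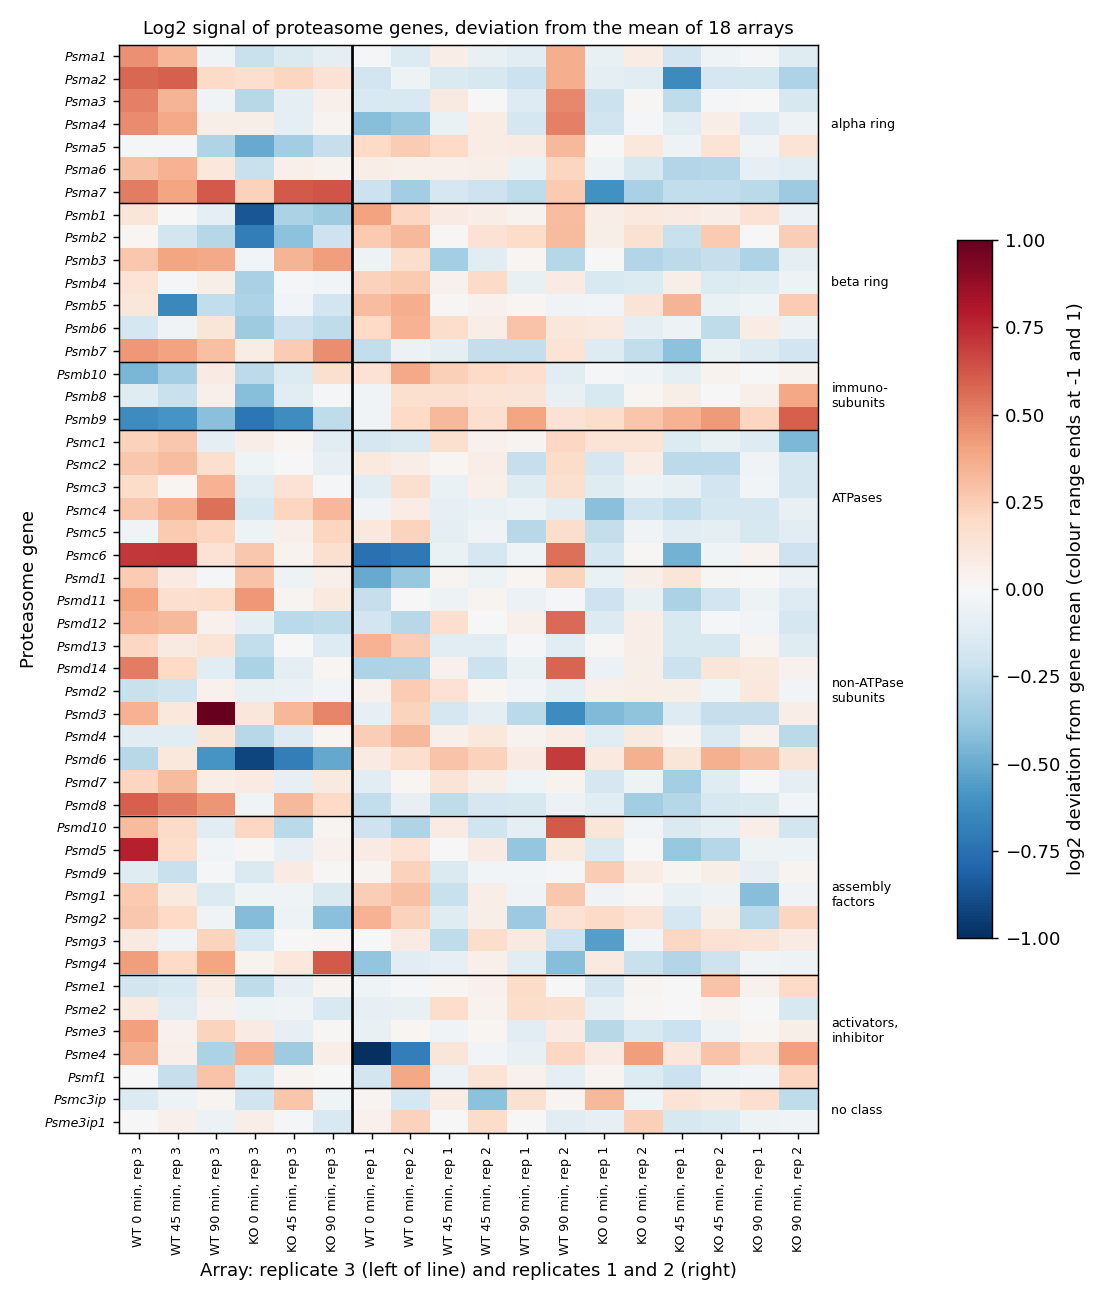
Log2 intensity of the 48 tested proteasome genes in all 18 arrays as deviation from the gene's own mean, with series A left and series B right of the black line and genes in classes. Colours end at -1 and 1. Psmb9 is blue and Psma7 and Psmb7 are red in all 6 arrays left of the line. Replicate 3 of KO at 0 min holds the lowest value of 15 genes, a share that was not counted over all genes.

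The spread within groups differed widely between members. The pooled SD over the 6 groups ran from 0.09 for Psmb4 to 0.49 for Psmb9, with a median of 0.21. The immunosubunit and the standard subunit of the same position, Psmb9 and Psmb6, had pooled SDs of 0.49 and 0.18. The other positions went the other way, with 0.17 for Psmb8 and 0.24 for Psmb5, and 0.24 for Psmb10 and 0.31 for Psmb7. The SD of Psmb9 includes its difference between the title-number series.

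Of genes that act with the proteasome, 5 lists were followed. Among 4 measured transcription factors of proteasome genes, Irf1, an interferon-response factor that drives immunosubunit genes, fell in WT at 90 min. It went from 9.70, 9.73 and 9.15 to 7.22, 7.01 and 6.66, with no overlap, a change of -2.56 ± 0.57 (limma adjusted p = 0.0304). The call was lost when any 1 of 5 arrays was left out, namely replicates 1 and 2 of WT at 0 min and replicates 1, 2 and 3 at 90 min, with changes from -2.69 to -2.41 and adjusted p values up to 0.116. With the replicate block the adjusted p was 0.00250 and within series B 0.00297. In KO, Irf1 went from 9.38, 9.57 and 8.32 to 7.20, 8.80 and 5.70, which overlap, a change of -1.85 ± 0.57 (adjusted p = 0.411), and the genotypes' changes differed by 0.71 with a 95% interval from -0.99 to 2.41.

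The other lists had no call in WT or KO at 90 min. They were 4 proteasome subunits and assembly factors of other names, 9 deubiquitinases, shuttles and segregase genes, 1 gene of ubiquitin activation (Uba6) and 8 genes of antigen processing for MHC class I. In WT at 90 min their medians were -0.05, 0.11, 0.32 and 0.16. The largest changes in the first list were -0.34 ± 0.14 for Akirin2, which brings proteasomes into the nucleus, and 0.14 ± 0.16 for Pomp, the maturation factor. Between the title-number series, where 26.1% of all genes were called, 5 of 8 antigen processing genes were called, 3 higher and 2 lower in series A, among them the peptide transporter Tap1 at -1.0 ± 0.14 (adjusted p = 4.935e-05). Of the 9 deubiquitinases, shuttles and segregase genes, 4 were called, 3 higher and 1 lower, among them the segregase Vcp at 0.37 ± 0.08 (adjusted p = 0.00186). Of the 4 transcription factors, 3 were called, 1 higher and 2 lower: Nlrc5, Nfe2l2 and Irf1.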

How the data were processed

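For each of 18 samples RNA was read on 1 array, the Affymetrix Mouse Gene ST 1.0. The deposited values are intensities made by the authors with RMA in Affymetrix Expression Console, per the submitters' processing notes. Since the scale is not stated, it was taken as linear from the range of the values, with the software version not given in the sources at hand. Values were put on the log2 scale without an offset. Among 25138 rows, 21039 had 1 symbol in the platform annotation, 1485 several and 2614 none listed; symbols were updated through a RefSeq table (GRCm38.p6), and 84 rows kept an older one. Genes were tested where the highest group mean reached a log2 intensity of 3.03, the median of row means. Group means of all 18 arrays were fitted without a block in limma 3.58.1 (R 4.3.3) with Benjamini-Hochberg adjustment over 10258 genes within each of 7 comparisons, at 0.05; errors are SE with n = 3 arrays a group unless SD is stated. The number of arrays limits the precision. The fitting was run on simulated data with known changes and independent noise in each array. Those data held no difference between series and no pairing, so the fit was not tested under either.

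The members and lists were chosen with earlier results of these data known, and the lists started partly from an earlier description of them. Named were the catalytic subunits Psmb5 to Psmb10 with Psme1 and Psme2, in each comparison the members past the threshold (up to 6) or the highest and lowest difference, class extremes at 90 min, and up to 4 members a list past the threshold or the 2 largest. Genes outside this rule were chosen after their values were seen.

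The groups share replicate numbers. Correlations of same-numbered arrays, as deviations from their group means, were all over 0.1 for WT at 45 min, KO at 45 and 90 min and KO against WT at 0, 45 and 90 min, and the numbers were taken to pair the arrays there, but not for WT at 90 min (lowest -0.29). Replicate 3 is series A in every group, so these correlations cannot tell a pairing from the difference between the series. Alternatives were the replicate and series blocks, series B alone, only the arrays compared, an intensity trend with a robust prior, quantile normalization, ribosomal centring, an offset of 8, other signal filters, the mean over a gene's rows and leaving out each array.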

Additional observations from a re-analysis of the deposited data

How the results depend on the processing

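Each of the 7 comparisons was repeated under 30 alternatives. The count of called members stayed at 0 under all 30 for the change in KO at 45 and 90 min and for the difference between the genotypes' changes at 90 min. With a block for the replicate number (taken as the pairing), or for the title-number series, it was 0 in all 7 comparisons. Within series B it was 3 for WT at 90 min and 1 each for WT at 45 min, KO against WT at 0 min and KO against WT over all times, all higher, beside 765, 218, 840 and 500 of all genes called higher. With ribosomal protein genes as the centre it was 2 for KO against WT at 0 min and 1 over all times, all higher, beside 804 and 584 genes. Leaving out each array in turn gave 0 to 1 in WT at 90 min, 0 to 1 in WT at 45 min, 0 to 3 for KO against WT at 0 min and 0 to 1 over all times, and leaving out both series B arrays of WT at 0 min gave 1 in WT at 90 min.

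With ribosomal centring the members' median went to 0.10 in WT at 90 min, 0.15 in WT at 45 min, -0.091 in KO at 90 min, -0.15 in KO at 45 min, 0.21 for KO against WT at 0 min, 0.068 over all times, -0.19 for the difference in change and -0.067 between the series. The medians of all genes under that centring were 0.10, 0.16, -0.13, -0.17, 0.38, 0.19, -0.22 and -0.03. Without both series B arrays of WT at 0 min the members' median was -0.18 in WT at 90 and at 45 min, -0.28 for KO against WT at 0 min and 0.18 for the difference in change. Relative to all genes, the members' median for KO minus WT ranged from -0.19 to -0.10 at 0 min and from -0.16 to -0.10 over all times. Some settings could not move this value, namely the blocks, the intensity trend with a robust prior, only the arrays compared and ribosomal centring. Their agreement is therefore no support, and the value itself was not tested.

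The counts over all genes, against which those of the members are read, ranged from 65 to 1378 in WT at 90 min (126 in the planned fit), 3 to 267 in WT at 45 min (13), 1 to 63 in KO at 90 min (23), 1 to 39 in KO at 45 min (5), 0 to 941 for KO against WT at 0 min (0), 79 to 608 over all times (136) and 1 to 7 for the difference in change (2). Irf1 in WT at 90 min also missed the limma threshold with quantile normalization (adjusted p = 0.0501) and with no signal filter (adjusted p = 0.0520). Without both series B arrays of WT at 0 min, which left 1 array in that group, its change was -2.18, beside -2.56 in the planned fit. Vcp lost its call between the series with ribosomal centring, and the count of members called there was 13 to 19 under the settings that kept all arrays. The split over all genes for KO against WT over all times was 32 higher and 53 lower without both series B arrays of WT at 0 min. What made these values move was not tested. The 3 arrays a group and signals relative to the array's average limit what can be seen, and Psmg3 lay at the signal limit.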

Other observations

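The table held further rows for 5 of the member symbols, Psmd2, Psma3, Psmb3, Psmc1 and Psma5, which were dimmer than the rows kept. No probe positions were at hand, so whether the brighter row of each read the gene itself or a copy was not checked. The log2 changes of the dimmer rows at 90 min ran from -0.18 for the other row of Psmb3 to 0.18 for that of Psmc1 in WT. In KO they ran from -0.08 for that of Psmc1 to 0.20 for that of Psmb3. The other row of Psma5, the subunit that was lower in series A, differed by -0.16 between the series, beside -0.35 in the row kept, and the other row of Psmb3 differed by 0.29, beside 0.44. A row that the platform annotation gives to both Psme2b and Psme2 was left out of the counts. It changed by -0.12 in WT and 0.01 in KO over 90 min, and its series A minus series B difference was -0.32 on the log2 scale, beside -0.05 for the row of Psme2 alone. Near-identical copies cannot be told apart on such a row.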
